A study of Mus musculus with 8 samples.

Results

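Growth factor and angiogenesis genes with secreted products, 10 of the 23413 gene symbols counted, were examined in tumor-associated macrophages (TAMs). They were taken by name: the VEGF family ligands Vegfa, Vegfb and Pgf, the anti-angiogenic matrix protein gene Thbs1, the EGF family ligands Hbegf, Areg and Ereg, the PDGF chains Pdgfa and Pdgfb, and Igf1. TAMs came from B16F10 melanomas, a mouse melanoma line grown under the skin of male B6 mice aged 8 to 10 weeks. Dosing fell on days 6 and 12 of tumor growth, and TAMs were sorted on day 18 by the surface phenotype CD45+F4/80+CD11b+Gr-1-. DMSO, the vehicle, was given to 2 mice, the antibiotic thiostrepton was injected into the peritoneum (I.P.) of 4 mice, and 2 mice were injected under the skin beside the tumor (S.C., called IS in the labels) with 20 mg/kg thiostrepton. Every mouse carried a tumor and gave 1 library, and no tumor-free or undosed mouse was analysed here. The I.P. dose of these 4 mice and the route of the DMSO mice are not given in the sources used here, so the route of injection and the drug cannot be told apart in the comparisons with DMSO, nor route and dose between S.C. and I.P. mice. The labels of the S.C. mice name a tumor-adjacent injection without its agent, and thiostrepton is taken from the series' design and the study's methods.

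Macrophages of a growing tumor release ligands that act on the cells around them. VEGF-A binds VEGF receptors on endothelial cells and drives vessel sprouting, and it is known to be induced in macrophages by low oxygen and by inflammatory signals, whereas thrombospondin-1 limits sprouting through CD36 and CD47. EGF family ligands are made as membrane proteins, are shed by metalloproteases and bind ErbB receptors on epithelial and tumor cells, PDGF chains act on pericytes and fibroblasts, and IGF-1 is a survival factor made at high levels by tissue macrophages.

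Library depth was 14127506 to 17577466 gene counts. Levels are given as CPM, counts per 1000000 library counts after scaling by edgeR's TMM factors, on which scale a floor of 3 counts was 0.169 to 0.218 CPM and covers counting error only. The sorted cells carried the macrophage label in their RNA, since all 10 macrophage markers were detected in every mouse, with summed levels of 10317 to 15345 CPM. All 7 melanoma markers were detected too, at 610 and 683 CPM in the DMSO mice, 453 to 1741 CPM in the I.P. mice, and 3042 and 733 CPM in S.C. mice 1 and 2. Endothelial markers summed to 0 to 9.17 CPM, with Cldn5 at 0 in all mice, and fibroblast and pericyte markers to 1.75 to 4.42 CPM, with Rgs5 at 0. Lymphocyte markers summed to 44.6 and 30.8 CPM in the S.C. mice against 0.0608 to 7.53 CPM in the other 6 mice, and the 7 neutrophil markers in the table to 290 and 456 CPM against 133 to 193 CPM. Of the sum in S.C. mouse 1, Cxcr2 gave 171 CPM. Cxcr2, S100a9, Ngp and Mmp8 were higher in S.C. mouse 1 than in the other 6 mice, and S100a8, Csf3r and Retnlg were not. In S.C. mouse 2 all of these except Cxcr2 were higher than in those 6 mice. S100a8 was at 6.46 and 64.7 CPM in S.C. mice 1 and 2, against 1.63 to 21.2 CPM, and S100a9 at 15.7 and 60.2 CPM, against 1.15 to 8.09 CPM. Platelet markers, led by Pf4, summed to 648 to 2415 CPM and monocyte markers to 20.3 to 317 CPM, with the S.C. mice inside both ranges. Zeros among 9328 genes that averaged 5 CPM or more made up 0.525% and 0.364% of them in the S.C. mice and 0.0107% to 0.129% in the other libraries. The libraries least like the others were S.C. 1, S.C. 2 and I.P. 1, with median correlations of 0.868, 0.884 and 0.892 against 0.937 to 0.954. How far these differences between libraries enter the levels below was not tested.

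**Figure D1:**
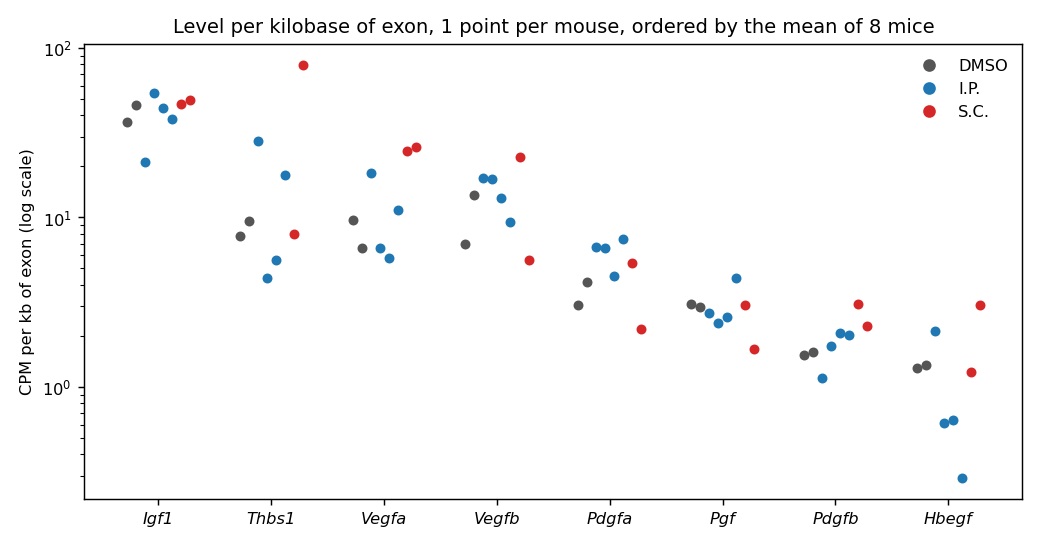
Level of 8 growth factor genes in CPM per kilobase of exon (vertical axis, log scale), 1 point per mouse, colored by group and ordered by the mean of the 8 mice. Igf1 is the highest by its mean of 42.1 CPM per kb and Hbegf the lowest at 1.33, and Thbs1 spans from 4.39 to 79.7. Areg and Ereg, which have zeros, are not drawn.

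Igf1 was the most abundant of the 10 transcripts and Ereg was close to absent. Divided by the summed exon length of each gene, so that genes can be compared, the means over the 8 mice were 42.1 CPM per kb for Igf1, 20.1 for Thbs1, 13.6 for Vegfa, 13.1 for Vegfb and 5.02 for Pdgfa. Pgf followed with 2.86 CPM per kb, Pdgfb with 1.94, Hbegf with 1.33, Areg with 0.365 and Ereg with 0.00818. Neighbors in this order were often not separated. Vegfb exceeded Pdgfa in 8 of 8 mice, but Thbs1 exceeded Vegfa in 4 of 8, Vegfa exceeded Vegfb in 5 of 8 and Igf1 exceeded Thbs1 in 6 of 8. The plot of levels per kilobase shows this overlap, with Thbs1 covering the ranges of both VEGF genes. Levels per kilobase rest on all annotated exons of a gene, and isoform use was not measured.

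Vegfa was the one growth factor gene that changed by the criterion used here, an unadjusted P under 0.05 with at least a 2-fold change, and it rose in the S.C. mice. Against DMSO, 1 of the 8 growth factors tested in S.C. mice was called, where 5.06% of all 11680 genes tested were called. In the I.P. mice 0 of 8 were called, against 2.0% of 12174 genes, with 1 at an unadjusted P under 0.05. Between S.C. and I.P. mice 1 of 9 was called, again Vegfa, against 7.05% of 12206 genes. A single call among so few genes does not set them apart from these shares. By edgeR's quasi-likelihood test with Benjamini-Hochberg adjustment over all genes, 0 growth factors passed an adjusted p of 0.05 in any comparison, as did 0% of all genes, and in each comparison 1 growth factor had an unadjusted P under 0.05, beside 418, 632 and 1049 of all genes. With DESeq2 and with edgeR's likelihood ratio test, Vegfa passed in S.C. mice against DMSO, with adjusted p of 0.0154 and 0.0221, and no other growth factor passed in any comparison. The I.P. and S.C. comparisons share the same 2 DMSO mice, so they are not independent of each other.

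**Figure D2:**
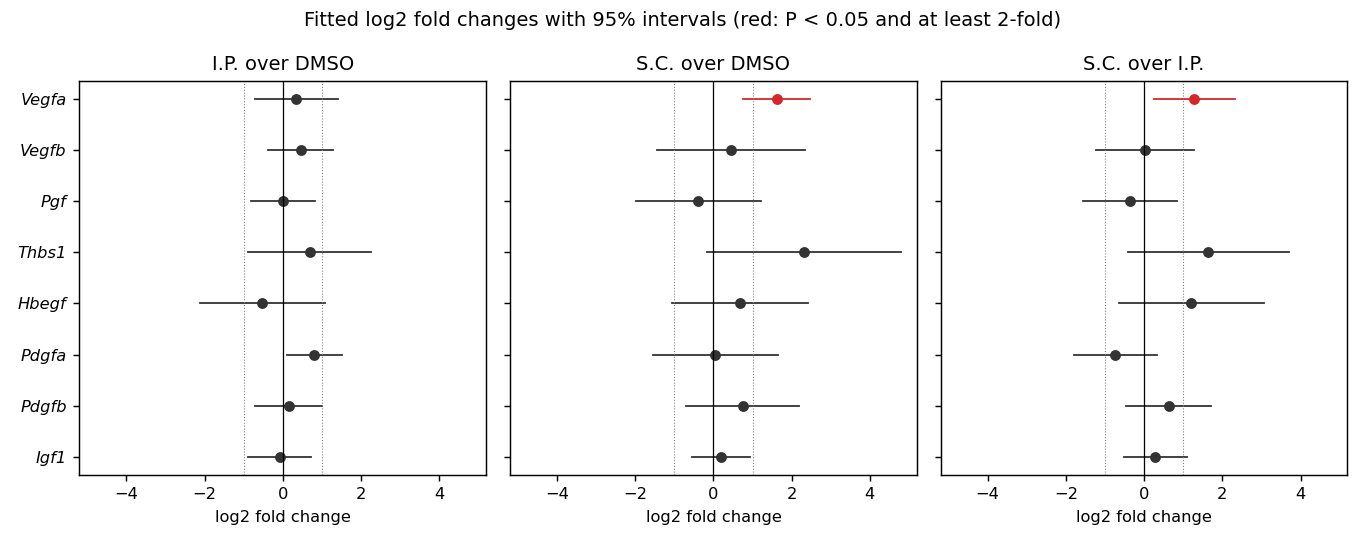
Fitted log2 fold change (horizontal axis) of the 8 growth factor genes tested in all 3 comparisons, with 95% intervals as lines and dotted lines at a 2-fold change. Red marks genes with an unadjusted P under 0.05 and at least 2-fold change: Vegfa alone, at 1.61 in S.C. against DMSO mice and 1.28 in S.C. against I.P. mice.

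Growth factor genes whose treated and control mice did not overlap numbered 1 of 8 in I.P. against DMSO mice (Pdgfa), where 14.1% of all genes tested did not overlap. In S.C. against DMSO mice they numbered 3 of 8 (Vegfa, Pdgfb and Igf1), against 34.3% of all genes, and in S.C. against I.P. mice 2 of 9 (Vegfa and Pdgfb), against 18.5%. The median log2 fold change of the growth factors tested was 0.25, 0.56 and 0.63 in the 3 comparisons, beside 0.02 for all genes in each. The third median is not over the same genes as the other medians. It includes Areg, at 1.73, which passed the filter on low counts only there and through its high mice. The plot of fold changes shows the width behind these values, since the intervals of most growth factors covered both a rise and a fall. In 4 against 2 mice an exact permutation test of 1 gene cannot give a two-sided p below 0.133, and in 2 against 2 mice not below 0.333, so the tests given here borrow the spread of all genes.

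**Figure D3:**
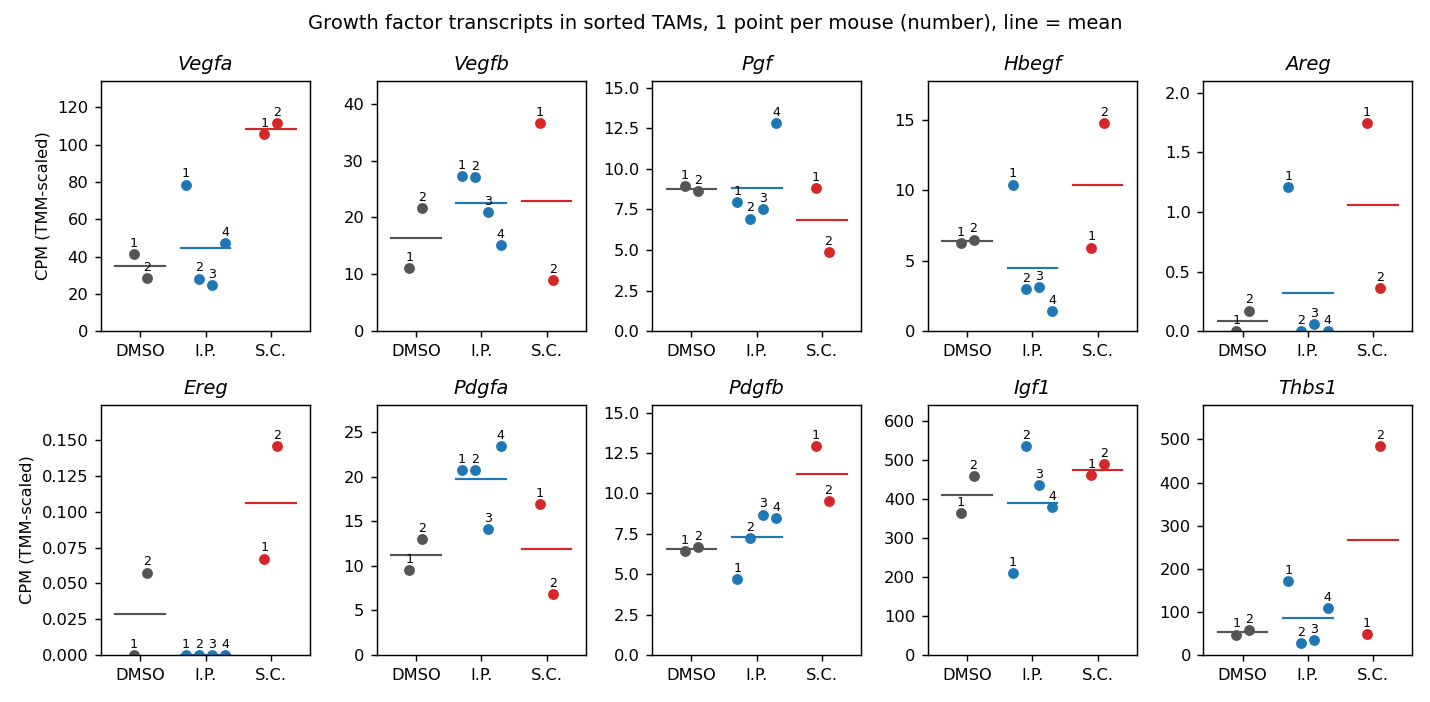
Level of each of the 10 growth factor genes in CPM (vertical axis, from 0, own scale per gene), 1 numbered point per mouse, with a line at the group mean. Vegfa is at 106 and 112 CPM in the S.C. mice, above all 6 other mice, while the high Thbs1 mean of the S.C. group comes from mouse 2 at 484 CPM.

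Vegfa encodes the main ligand of endothelial VEGF receptors, on GRCm38 chromosome 17 at 46016993 to 46032369, minus strand (Ensembl gene ENSMUSG00000023951.17). It was at 41.3 and 28.5 CPM in DMSO mice 1 and 2, at 78.6, 28.2, 24.8 and 47.1 CPM in I.P. mice 1 to 4, and at 106 and 112 CPM in S.C. mice 1 and 2. Both S.C. mice were above every other mouse, and I.P. mouse 1 was the next highest, while I.P. mice 2 and 3 lay below both DMSO mice. The group means were 34.9 ± 9.07 CPM (SD, n = 2) with DMSO, 44.7 ± 24.7 (SD, n = 4) with I.P. and 109 ± 4.44 (SD, n = 2) with S.C. thiostrepton. The S.C. level was 3.06-fold that of DMSO, a log2 fold change of 1.61 with a standard error of 0.35 and a 95% interval of 0.75 to 2.48 (adjusted p = 0.747, edgeR). Against I.P. mice it was 2.43-fold higher, a log2 fold change of 1.28 with a standard error of 0.45 (adjusted p = 0.484, edgeR). I.P. and DMSO mice did not separate, at a log2 fold change of 0.35 with an interval of -0.71 to 1.40 (adjusted p = 0.98, edgeR), and without I.P. mouse 1 this value was -0.061. The melanoma marker sums of S.C. mice 1 and 2 were 3042 and 733 CPM. Lymphocyte marker sums were higher in both S.C. mice, and the part of lymphocyte, neutrophil or melanoma RNA in the Vegfa level was not tested. In sorted bulk RNA, more cells of a type and more transcript per cell cannot be told apart. Without DMSO mouse 2 the S.C. rise was 1.36 on the log2 scale and was not called, and the difference from I.P. mice, at 1.32 and 1.24, was not called without S.C. mouse 1 or S.C. mouse 2, in each case by the unadjusted P.

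To show the sequence around the starts of the gene that differed most clearly and of the most abundant one, RefSeq promoter windows of Vegfa and Igf1 on GRCm38.p6 were read, each from 250 bases before to 50 bases after an annotated start. These 3 motifs were searched on both strands: ACGTG, the core of the hypoxia response element, TGANTCA, and GGGCGG, the SP1 box, where N is any base. TGANTCA is a looser form of the AP-1 element, which has C or G at N. Of 32851 promoter windows of the same length, 19.6% held the first, 7.81% the second and 35.7% the third. Matches are in capitals, and the sequences run 5′ to 3′ on the strand of the gene.
Vegfa upstream start, chr17:46032328-46032627, minus strand: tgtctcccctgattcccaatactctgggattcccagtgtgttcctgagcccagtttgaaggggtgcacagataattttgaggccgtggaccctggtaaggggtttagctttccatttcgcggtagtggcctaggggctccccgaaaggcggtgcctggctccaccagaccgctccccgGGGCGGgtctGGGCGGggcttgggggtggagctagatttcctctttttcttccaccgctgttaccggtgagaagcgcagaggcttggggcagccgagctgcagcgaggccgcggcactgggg
Vegfa internal start, chr17:46025114-46025413, minus strand: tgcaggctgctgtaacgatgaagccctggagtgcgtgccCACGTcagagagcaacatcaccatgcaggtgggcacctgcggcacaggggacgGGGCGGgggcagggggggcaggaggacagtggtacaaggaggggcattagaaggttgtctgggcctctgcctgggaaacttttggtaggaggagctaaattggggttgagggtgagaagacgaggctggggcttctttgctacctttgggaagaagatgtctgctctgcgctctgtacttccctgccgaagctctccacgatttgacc
Igf1, chr10:87860861-87861160, plus strand: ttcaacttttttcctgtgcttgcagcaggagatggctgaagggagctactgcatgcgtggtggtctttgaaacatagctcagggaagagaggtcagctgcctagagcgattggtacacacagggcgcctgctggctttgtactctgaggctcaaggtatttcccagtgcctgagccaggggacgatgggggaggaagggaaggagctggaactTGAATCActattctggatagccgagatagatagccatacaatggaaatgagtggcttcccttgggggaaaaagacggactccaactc
The upstream Vegfa window held 2 GGGCGG matches and neither other motif, with a GC content of 62%, and 42 of its 300 bases were exonic in GENCODE. The internal Vegfa window lies within the gene, with 218 exonic bases, and held 1 ACGTG match, read as CACGT on the printed strand, and 1 GGGCGG match. The Igf1 window, all of it exonic in GENCODE, held 1 TGANTCA match and had a GC content of 52.3%. That match has A at N, so it is not the AP-1 element itself. The matches describe these letters only, and which start was used was not measured. Windows were given for 6 of the 10 genes.

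The other VEGF family ligands did not follow Vegfa. Vegfb, a VEGF receptor 1 ligand linked to fatty acid uptake by endothelium (chromosome 19, 6982473 to 6987651), was at 11.1 and 21.6 CPM in the DMSO mice, at 27.3, 27.1, 20.9 and 15.1 CPM in I.P. mice 1 to 4, and at 36.7 and 9.03 CPM in S.C. mice 1 and 2. S.C. mouse 1 was the highest and S.C. mouse 2 the lowest of all 8 mice. The S.C. change was therefore wide, at a log2 fold change of 0.45 with an interval of -1.45 to 2.34 (adjusted p = 1, edgeR), and it was -0.89 with S.C. mouse 2 alone and 1.10 with S.C. mouse 1 alone. In the I.P. mice it was 0.45 with a standard error of 0.37 (adjusted p = 0.98, edgeR). Pgf, placental growth factor, which also binds VEGF receptor 1 (chromosome 12, 85166635 to 85177790), was at 8.95 and 8.61 CPM with DMSO, at 7.97, 6.93, 7.51 and 12.8 CPM with I.P. and at 8.81 and 4.88 CPM with S.C. thiostrepton. I.P. mice 1 to 3 and S.C. mouse 2 lay below both DMSO mice, and I.P. mouse 4 was the highest. Its log2 fold change against DMSO was -0.00024 in I.P. mice, with an interval of -0.82 to 0.82 (adjusted p = 1), and -0.39 in S.C. mice, with an interval of -1.99 to 1.21 (adjusted p = 1, edgeR).

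Thbs1, thrombospondin-1, an inhibitor of angiogenesis that also activates latent TGF-beta (chromosome 2, 118111876 to 118127133), varied most among the abundant transcripts, by 18.2-fold from the lowest to the highest mouse. It was at 47.3 and 57.8 CPM with DMSO, at 171, 26.6, 34.0 and 109 CPM in I.P. mice 1 to 4, and at 48.4 and 484 CPM in S.C. mice 1 and 2. I.P. mice 1 and 4 were above both DMSO mice and I.P. mice 2 and 3 below both, and S.C. mouse 1 lay between the DMSO mice. The group means were 52.6 ± 7.41 CPM (SD, n = 2), 85.2 ± 68.4 (SD, n = 4) and 266 ± 308 (SD, n = 2). The fitted log2 fold change in S.C. mice was 2.32 with a standard error of 1.0 and an interval of -0.16 to 4.80 (adjusted p = 0.94, edgeR). This value rests on 1 mouse, since it was -0.18 without S.C. mouse 2 and 3.17 without S.C. mouse 1. In I.P. mice the value was 0.68 with a standard error of 0.69 (adjusted p = 0.98), and between S.C. and I.P. mice 1.64 with a standard error of 0.90 (adjusted p = 0.682, edgeR). The ratio of Vegfa to Thbs1 counts, ligand over inhibitor, was 0.872 and 0.493 in the DMSO mice, 0.459, 1.06, 0.729 and 0.433 with I.P. and 2.18 and 0.231 with S.C. thiostrepton. The highest and the lowest ratio were thus both in S.C. mice. A gene on the opposite strand, Gm29233, overlaps Thbs1 exons and was not in the count table. Whether the counting used strand is not given in the sources used here.

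Of the EGF family ligands Hbegf, Areg and Ereg, Hbegf alone was expressed well above the floor, and neither comparison with DMSO called it. Hbegf, heparin-binding EGF-like growth factor, a ligand of EGFR and ErbB4 (chromosome 18, 36504927 to 36515805), was at 6.24 and 6.49 CPM with DMSO, at 10.4, 2.98, 3.10 and 1.40 CPM in I.P. mice 1 to 4, and at 5.92 and 14.8 CPM in S.C. mice 1 and 2. I.P. mouse 1 and S.C. mouse 2 were above both DMSO mice and the other 4 treated mice were below both. The log2 fold change against DMSO was -0.53 with a standard error of 0.70 in I.P. mice (adjusted p = 0.98) and 0.68 with a standard error of 0.70 in S.C. mice (adjusted p = 1, edgeR). With I.P. mouse 1 left out this value in I.P. mice was -1.35 and was called, at an adjusted p of 0.999. Against I.P. mice the S.C. value was 1.21 with an interval of -0.65 to 3.08 (adjusted p = 0.769, edgeR), and without I.P. mouse 1 it was 2.05 and was called (adjusted p = 0.409).

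Areg, amphiregulin, an EGFR ligand (chromosome 5, 91139599 to 91148432), had 0 and 3 counts with DMSO, 19, 0, 1 and 0 counts in I.P. mice 1 to 4, and 26 and 5 counts in S.C. mice 1 and 2. It was above the floor of 3 counts only in I.P. mouse 1 and the S.C. mice, the same libraries that stood apart from the rest. The summed S.C. counts, scaled for library size, were 11.6-fold those of DMSO with a 95% counting interval of 3.62 to 59.4, and 3.63-fold those of I.P. mice with an interval of 2.0 to 6.72. These intervals hold counting error alone and not the spread between mice. Areg passed the filter on low counts for S.C. against I.P. mice, through its high mice, with a log2 fold change of 1.73 and a standard error of 1.80 (adjusted p = 0.858, edgeR). Ereg, epiregulin, a ligand of EGFR and ErbB4 beside Areg on chromosome 5 (91074622 to 91093646), had 0 and 1 counts with DMSO, 0 in all 4 I.P. mice, and 1 and 2 counts with S.C. thiostrepton. All of these are under the floor, so a change in Ereg was not detectable at this depth. Gm19610, on the opposite strand, overlaps its exons and was not in the count table.

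Neither PDGF chain was called in any comparison, and Pdgfa was the growth factor with the smallest P in I.P. mice. Pdgfa, the chain that binds PDGF receptor alpha (chromosome 5, 138976014 to 138997370), was at 9.50 and 13.0 CPM with DMSO, at 20.8, 20.7, 14.1 and 23.4 CPM in I.P. mice 1 to 4, and at 16.9 and 6.84 CPM in S.C. mice 1 and 2. All 4 I.P. mice were above both DMSO mice, whereas 1 S.C. mouse was above and 1 below them. The I.P. level was 1.74-fold that of DMSO, a log2 fold change of 0.80 with a standard error of 0.31 and an interval of 0.10 to 1.50 (adjusted p = 0.98, edgeR), with an unadjusted P under 0.05 and a size under the 2-fold required for a call. It was called without DMSO mouse 2, at 1.05 (adjusted p = 1). In S.C. mice the value was 0.05 with an interval of -1.55 to 1.64 (adjusted p = 1), and between S.C. and I.P. mice -0.73 with an interval of -1.80 to 0.34 (adjusted p = 0.753, edgeR). A transcript on the opposite strand, 6330403L08Rik, overlaps Pdgfa exons and was not in the count table.

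Pdgfb, the chain that recruits pericytes through PDGF receptor beta (chromosome 15, 79995874 to 80014977), was at 6.44 and 6.66 CPM with DMSO, at 4.72, 7.24, 8.69 and 8.46 CPM in I.P. mice 1 to 4, and at 12.9 and 9.54 CPM in S.C. mice 1 and 2. Both S.C. mice were above all 6 other mice. The differences did not pass the test, at a log2 fold change of 0.75 against DMSO with an interval of -0.69 to 2.19 (adjusted p = 1) and 0.63 against I.P. mice with an interval of -0.46 to 1.71 (adjusted p = 0.803, edgeR). In I.P. mice the value was 0.15 with a standard error of 0.38 (adjusted p = 0.987, edgeR).

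Igf1, insulin-like growth factor 1 (chromosome 10, 87858265 to 87937042), was the steadiest of the 10 genes across mice, with a highest level 2.55-fold the lowest. It was at 364 and 458 CPM with DMSO, at 210, 535, 437 and 379 CPM in I.P. mice 1 to 4, and at 462 and 490 CPM in S.C. mice 1 and 2. I.P. mouse 1 was the lowest and I.P. mouse 2 the highest, and both S.C. mice lay just above both DMSO mice and inside the I.P. range. The log2 fold change was -0.08 in I.P. mice with an interval of -0.89 to 0.73 (adjusted p = 0.991), and 0.19 in S.C. mice with an interval of -0.55 to 0.92 (adjusted p = 1, edgeR). Between S.C. and I.P. mice it was 0.29 with an interval of -0.52 to 1.09 (adjusted p = 0.88, edgeR). These intervals leave room for changes of close to 2-fold, so equal Igf1 levels were not shown.

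Transcripts for the receptors of these ligands were mostly scarce in the same cells, except those for neuropilins and thrombospondin receptors. Of 14 receptor genes, Nrp1, a VEGF co-receptor, was at 175 to 435 CPM, Nrp2 at 40.4 to 115 CPM, Cd36 at 353 to 1479 CPM and Cd47 at 338 to 439 CPM. Erbb4 and Pdgfra had 0 counts in all 8 mice, Egfr had at most 27 counts, Erbb2 at most 14 and Pdgfrb at most 4. Erbb3 had 1 to 93 counts and Igf1r, the IGF-1 receptor, 6 to 72 counts. Flt1, VEGF receptor 1, which binds Vegfa, Vegfb and Pgf products, was called in both S.C. comparisons and was the only receptor called. It had 13 and 2 counts with DMSO, 2, 4, 24 and 1 counts with I.P., and 94 and 83 counts with S.C. thiostrepton. Both S.C. mice, at 6.32 and 6.04 CPM, were above all 6 others, and endothelial markers summed to 0 CPM in S.C. mouse 1 and 9.17 CPM in S.C. mouse 2. The log2 fold change of Flt1 was 3.60 with a standard error of 1.25 against DMSO (adjusted p = 0.83) and 3.76 with a standard error of 1.16 against I.P. mice (adjusted p = 0.399, edgeR). Without DMSO mouse 2 no receptor was called in S.C. against DMSO mice.

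**Figure D4:**
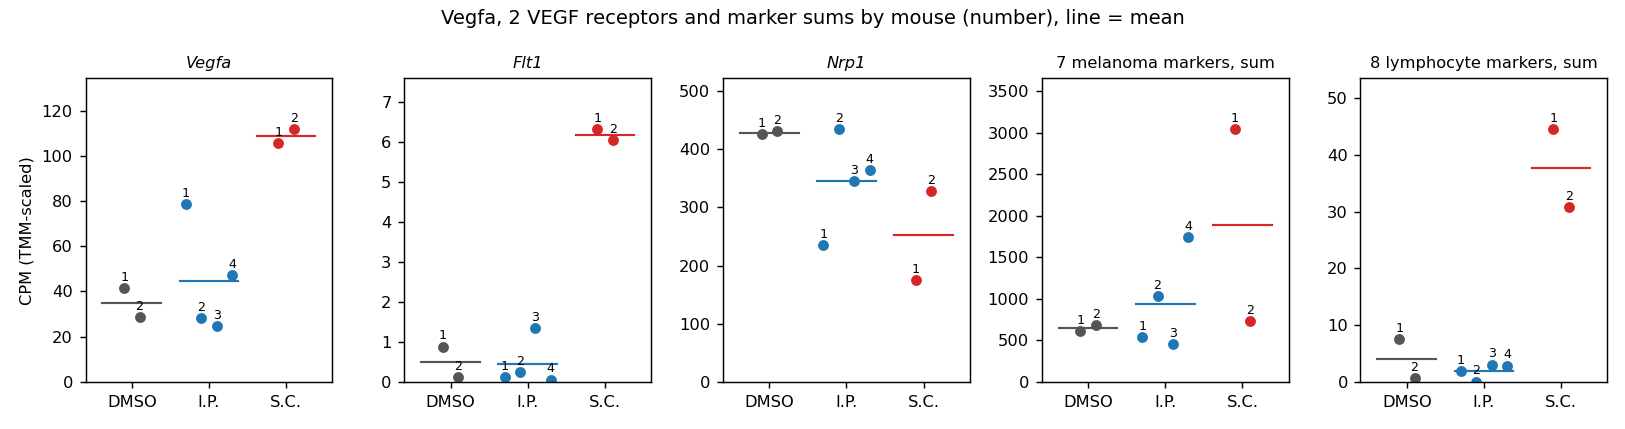
Vegfa, the VEGF receptors Flt1 and Nrp1, and the summed melanoma and lymphocyte markers in CPM (vertical axes, from 0, own scale per panel), 1 numbered point per mouse, with a line at the group mean. Vegfa and Flt1 are higher in S.C. mice 1 and 2 than in the other mice, as is the lymphocyte sum, and the melanoma sum is 3042 in S.C. mouse 1 and 733 in S.C. mouse 2.

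Nrp1 was at 426 and 431 CPM with DMSO, at 235, 435, 345 and 364 CPM with I.P. and at 175 and 328 CPM in S.C. mice 1 and 2. All treated mice except I.P. mouse 2 were below both DMSO mice. The log2 fold change in S.C. against DMSO mice was -0.79 and did not pass the test (adjusted p = 0.995, edgeR). Kdr, VEGF receptor 2, was at 1.97 and 1.21 CPM with DMSO, at 1.59 to 7.23 CPM with I.P. and at 1.14 and 1.31 CPM with S.C. thiostrepton, with a log2 fold change in I.P. mice of 1.17 (adjusted p = 0.98). Flt4, VEGF receptor 3, reached 79 counts in S.C. mouse 1 and 0 in S.C. mouse 2, against at most 12 elsewhere. Nrp2 had the next smallest P among receptors after Kdr in I.P. mice, at a log2 fold change of -0.38 (adjusted p = 0.98, edgeR). The receptor list as a whole had 0 of 9 tested genes called in I.P. mice, 1 of 8 in S.C. mice and 1 of 9 between S.C. and I.P. mice, beside 2.0%, 5.06% and 7.05% of all genes. Their median log2 fold changes were -0.13, 0.15 and 0.16, beside 0.02 for all genes in each comparison. The panels of Vegfa beside Flt1 and Nrp1 show the ligand and Flt1 high in the same 2 mice, and Nrp1 lowest in S.C. mouse 1.

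Of 20 related ligands, 6 had enough counts to be tested in I.P. against DMSO mice and 4 in S.C. against DMSO mice. Pdgfc, a further PDGF chain that is named here after its values were seen, was at 31.5 to 74.5 CPM in the 8 mice. Nrg4, neuregulin 4, an ErbB4 ligand, was the one called in I.P. mice. It had 15 and 43 counts with DMSO, 120, 66, 89 and 79 counts with I.P., and 0 and 54 counts with S.C. thiostrepton. All 4 I.P. mice were above both DMSO mice, at a log2 fold change of 1.59 with a standard error of 0.55 (adjusted p = 0.98, edgeR). Nrg2, neuregulin 2, had 0 counts in both S.C. mice and 59, 2, 23 and 0 counts in I.P. mice, at least 11.95-fold lower in S.C. mice by the floor of 3 counts over the group (adjusted p = 0.577, edgeR). It passed the filter on low counts through I.P. mice 1 and 3, I.P. mouse 4 was also at 0, and without I.P. mouse 1 the bound was 4.65-fold. Hgf, hepatocyte growth factor, had log2 fold changes of 1.23 against DMSO (adjusted p = 1) and 1.06 against I.P. mice (adjusted p = 0.687) in S.C. mice. S.C. mouse 2, at 37.9 CPM, was above all other mice, whereas S.C. mouse 1, at 13.1 CPM, lay between the DMSO mice at 13.4 and 8.15 CPM. Angpt2, a Tie2 ligand, had a value of 0.57 in S.C. mice (adjusted p = 1), with S.C. mouse 1 at 17.2 CPM above and S.C. mouse 2 at 5.75 CPM below both DMSO mice, and Apln, apelin, -1.57 in I.P. mice (adjusted p = 0.98, edgeR). Of the list, 1 of 6 tested genes was called in I.P. mice, 0 of 4 in S.C. mice and 1 of 6 between S.C. and I.P. mice, beside the same shares of all genes, 2.0%, 5.06% and 7.05%. Their medians were 0.29, 0.36 and 0.17, beside 0.02 for all genes.

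Among genes for the release, binding and feedback control of these ligands, Igfbp4, which binds IGF-1, was the one called. It had 1427 and 4431 counts with DMSO, 596, 2131, 1405 and 775 counts with I.P., and 1438 and 1000 counts with S.C. thiostrepton. The I.P. and DMSO mice overlapped, with I.P. mouse 2 above DMSO mouse 1, at a log2 fold change of -1.27 with a standard error of 0.53 (adjusted p = 0.98, edgeR), and the S.C. value was -1.08 (adjusted p = 0.99). Errfi1, a feedback inhibitor of EGFR, was higher in both S.C. mice than in both DMSO mice, at 833 and 1045 against 621 and 649 counts, with a log2 fold change of 0.71 that missed the threshold (adjusted p = 0.99, edgeR) and 0.51 against I.P. mice (adjusted p = 0.719). Rhbdf2, a partner of the sheddase ADAM17, had a value of 0.71 in S.C. against I.P. mice (adjusted p = 0.638), and Spred1, a Ras pathway inhibitor, -0.80 in I.P. mice (adjusted p = 0.98, edgeR). Of the 19 genes, 1 of 14 tested was called in I.P. mice, 0 of 13 in S.C. mice, where none had an unadjusted P under 0.05, and 0 of 14 between S.C. and I.P. mice, beside 2.0%, 5.06% and 7.05% of all genes. In S.C. against DMSO mice 5 of 13 did not overlap, beside 34.3% of all genes. Their medians were 0.07, -0.10 and 0.25, and single values reached a size of 2.58, 1.77 and 1.77 on the log2 scale without being called. By edgeR's quasi-likelihood test 0 genes of the 3 lists passed an adjusted p of 0.05.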

How the data were processed

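RNA-seq counts of TAMs from 8 mice, 1 library per mouse, were used. Whole-number counts per gene symbol were deposited by the authors without normalization. They aligned reads to mm10 with bowtie2 and counted them with RSEM, while the labels list TopHat2 and edgeR with no role. The deposited counts were not pooled, and 0 columns lacked a sample. Mice were grouped by the source names in their labels.

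The main test was the quasi-likelihood test of edgeR 4.0.16 (R 4.3.3, limma 3.58.1), two-sided, run on 1 pair of groups at a time with TMM factors. DESeq2 1.42.0 served as an alternative. Genes entered a fit by filterByExpr with a minimum count of 10 and a minimum total of 15, and P values had Benjamini-Hochberg adjustment over all genes tested. A gene was called at an unadjusted P under 0.05 with at least a 2-fold change, the criterion stated in the study's methods. The standard error is the size of the log2 fold change divided by the square root of F. Log2 CPM used a prior count of 2. Counting intervals are exact at 95%. Libraries of a group differed by far more than sampling noise, and none was merged. The procedure was tested on simulated data.

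The 10 growth factor genes, the 53 genes of 3 partner lists (receptors, related ligands, and release, binding and feedback) and the marker lists (macrophage, melanoma, endothelial, fibroblast and pericyte, platelet, neutrophil, lymphocyte, monocyte) were chosen with earlier results of these data known. The text names all 10 genes and, from each partner list, every called gene, the 2 genes with the smallest P per comparison, and detected receptors. Other receptors with few or no counts, and genes of the marker lists that lead or are at 0, are named too. The 3 genes with the highest Pearson r over the 8 mice are named for Vegfa, Hbegf, Thbs1 and Igf1. Positions and exon lengths are from GENCODE vM21 on GRCm38, the assembly of mm10, in which 93.0% of the symbols were found, and promoter windows are from RefSeq. Alternatives concerned the filter (none, or 1 CPM in at least 2 mice), the scaling (RLE, or library size only), the test (likelihood ratio, or DESeq2) and the model (1 fit of all 3 groups, a replicate block, or leaving out each mouse). Whether replicate numbers pair the mice was not settled, and no block was used in the main test.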

Additional observations from a re-analysis of the deposited data

Results flagged for a closer look

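Vegfa was higher in S.C. than in I.P. mice by 1.28 on the log2 scale, a difference that was tested directly (adjusted p = 0.484, edgeR). Both S.C. mice were above all 4 I.P. mice. It is given here because the 2 groups of mice, whose route and dose cannot be told apart, differed at an unadjusted P under 0.05, while the difference did not pass the adjustment over all genes. No outlier could be tested in the groups of 2 mice, and none of the 8 growth factor genes tested had a mouse that stood apart among the 4 I.P. mice by Dixon's test. With 4 values that test finds only a very large gap, so it cannot exclude an outlying mouse. Without I.P. mouse 1 the log2 fold change of Hbegf in I.P. against DMSO mice moved from -0.53 to -1.35.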

How the results depend on the processing

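Vegfa in S.C. against DMSO mice kept its direction and call in the 9 settings other than leaving out a mouse, with log2 fold changes of 1.46 to 1.64 and adjusted p of 0.0154 to 0.753, and in S.C. against I.P. mice in 8, at 1.18 to 1.29 and adjusted p of 0.173 to 1. With 2 growth factors called in S.C. mice (no filter, likelihood ratio test, DESeq2 and the replicate block), Thbs1 joined Vegfa. Its adjusted p was 0.714, 0.404, 0.179 and, at 1.53 with the block, 1. Partner genes called in I.P. mice numbered 3 with no filter and 1 with all 3 groups in 1 fit, against 2. In S.C. mice they numbered 4 with no filter and 2 with DESeq2, with all 3 groups in 1 fit and with the replicate block, against 1. Between S.C. and I.P. mice they numbered 5 with no filter, 1 with the filter of 1 CPM and 1 with the replicate block, against 2. Pgf in I.P. mice turned to 0.0019 (filter of 1 CPM), 0.0025 (RLE), 0.0026 (DESeq2) and 0.0045 (all 3 groups). Pdgfa in S.C. mice turned to -0.10 and Vegfb between S.C. and I.P. mice to -0.075 with library size only. With the replicate block, Pdgfb in I.P. mice turned to -0.17, Pdgfa in S.C. mice to -0.073 and Vegfb between S.C. and I.P. mice to -0.59. Deviations from the group mean had correlations of -0.129 to 0.0707 between same-numbered mice. In groups of 2 mice the deviations mirror each other, so this check cannot settle whether the numbers pair the mice. A block with the numbers crossed in S.C. and DMSO mice, chosen after the data were seen, called 1 growth factor and 2 partner genes, with Pdgfa at -0.072. The cause of these shifts was not tested.

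Leaving out 1 mouse at a time, growth factors called ranged from 0 to 1 in I.P. against DMSO mice, from 1 to 3 in S.C. against DMSO mice and from 0 to 3 in S.C. against I.P. mice, and partner genes from 1 to 2, 0 to 16 and 1 to 5. A lone S.C. or DMSO mouse was then assumed to vary like the other group. In I.P. mice the values ranged from -0.061 to 0.64 for Vegfa, from -0.24 to 0.10 for Pgf and from -0.26 to 0.13 for Igf1. In S.C. mice they ranged from -0.89 to 1.10 for Vegfb, from -0.17 to 1.19 for Hbegf, from -0.75 to 0.52 for Pdgfa and from -0.18 to 3.17 for Thbs1. Between S.C. and I.P. mice they ranged from -1.32 to 0.69 for Vegfb and from -0.82 to 2.51 for Thbs1. Over all genes, the counts with an adjusted p under 0.05 were 0 in each comparison, and 10, 179 and 265 with the likelihood ratio test and 26, 107 and 234 with DESeq2. Called genes numbered 243, 591 and 860, and between S.C. and I.P. mice 389 with the replicate block. In I.P. mice they numbered 160 with all 3 groups in 1 fit and 116 without DMSO mouse 1. In S.C. mice they numbered 206 and 113 without DMSO mice 1 and 2, and 2989 and 3432 without S.C. mice 1 and 2, and between S.C. and I.P. mice 2003 and 2115 without those. At this depth Ereg stayed under the floor of 3 counts in every mouse.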

Other observations

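The 3 genes whose levels ran most alike to those of Vegfa over the 8 mice were Dusp1, a MAP kinase phosphatase (Pearson r of log2 CPM 0.985), Nr4a1, an immediate early nuclear receptor (0.975), and Cd14, the lipopolysaccharide co-receptor (0.973). Nr4a1 was at 7.73 and 6.14 CPM in the DMSO mice, at 165, 6.75, 5.02 and 15.2 CPM in I.P. mice 1 to 4, and at 263 and 273 CPM in the S.C. mice. The libraries with high levels were thus I.P. mouse 1 and both S.C. mice, the 3 least like the others. Dusp1 was at 525 and 186 CPM with DMSO, at 1716, 320, 245 and 581 CPM with I.P. and at 2326 and 2517 CPM with S.C. thiostrepton, and Cd14 at 217 and 222, at 850, 153, 130 and 245, and at 1192 and 1710 CPM.

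For Thbs1 these genes were Kidins220 (r = 0.960), Malt1 (0.960) and Arhgap31 (0.948), for Hbegf Adora2b (0.961), Bloc1s4 (0.942) and Timm22 (0.942), and for Igf1 Oxct1 (0.965), Pex6 (0.958) and Tada2a (0.957). Malt1, a signalling protease, was highest in S.C. mouse 2 at 57.9 CPM and next highest in I.P. mouse 1 at 33.3 CPM, as Thbs1 was. Adora2b, an adenosine receptor, was lowest in I.P. mouse 4 at 6.71 CPM and highest in S.C. mouse 2 at 27.7 CPM, as Hbegf was. Oxct1, an enzyme of ketone body use, was lowest in I.P. mouse 1 at 158 CPM, as Igf1 was. These genes were the highest of 9327 by r, the 8 points share their groups and libraries, and the values are a description. Among the growth factors themselves, Vegfa and Thbs1 had an r of 0.71, Vegfb and Pdgfa 0.71, and Hbegf and Pgf -0.68, over the same 8 mice.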
